A study of Rattus norvegicus with 3 samples.

Results

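Kidney RNA of rats taken 2 days after thallium was compared with kidney RNA of control rats, gene by gene, on Clariom S arrays. The comparison used the array titled for the kidney 2 days after thallium (Tl 2 days) and the array titled for the control kidney (control), 2 of the 3 arrays of the series, and the array of the Tl 5 days group served only for the closing section. Every probe set that the platform annotation links to a single gene symbol entered, which were 15049 of 24834 probe sets and made 15037 genes. A further 9785 probe sets were not named here and are counted apart. For each gene the log2 value of control was subtracted from that of Tl 2 days, so a difference of 1 is 2-fold. Male Wistar rats of 7 weeks received thallium sulfate intraperitoneally (Tl 2 days) or double distilled water (control). The dose was a single 30 mg/kg by the methods of the study, daily 30 mg/kg by the series record and daily 40 mg/kg by the sample records. The sample records also call the source spleen, whereas the titles and the methods call it kidney. Each group had 1 array. The number of rats behind an array is not given in the sources used here, so the spread between rats is unknown and no difference was tested. The tissue had been frozen and was thawed at room temperature before RNA was extracted.

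Thallium is a toxic heavy metal whose monovalent ion is close in size to the potassium ion, and potassium channels, transporters and the sodium potassium pump carry it into cells. The kidney both excretes and accumulates it. The tubule that is exposed to it runs from the proximal tubule, which reclaims most filtered solutes, through the thick ascending limb and the distal tubule to the collecting duct. Injured tubule cells are known to lose their transporters, to switch on injury genes and to divide.

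The labelled tissue was checked first. Of 47 measured markers of the proximal tubule, 45 had a log2 value above 9.3 on either array, and their median was 14.33 in Tl 2 days and 14.74 in control. None of 17 measured markers of spleen B and T cells exceeded 9.3 on either array, with medians of 4.11 in Tl 2 days and 3.95 in control. The markers thus match kidney, not spleen. The limit of 9.3 lies just above the highest of the 63 ERCC probe sets (9.28), which detect synthetic RNA and hardly differed between arrays. It was exceeded on either array by 4697 genes and on both arrays by 4052, and values above it are called bright and others dim. The median gene had 7.01 in Tl 2 days and 6.89 in control, and the median difference was 0. Across genes, which are not independent replicates, the arrays correlated at 0.976.

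Over 2-fold higher in Tl 2 days were 906 of 15037 genes (6.03%), and over 2-fold lower were 699 (4.65%). With both arrays centred on their medians, which lowers every difference by 0.12, the numbers were 752 and 874, so which direction held more genes depends on the scaling. Among the 4697 genes above 9.3 on either array the numbers were 505 (10.8%) and 422 (8.98%). A gene dim on 1 array enters this set only by being bright on the other, so the 4052 genes bright on both arrays are the plainer reference, with 306 higher and 306 lower (7.55% each way). Over 4-fold, 60 of these were higher and 69 lower, and over 16-fold 7 and 5. Differences over 2-fold also occurred among probe sets marked as negative controls, whose targets are not given in the sources used here. Of 125 of these above 9.3 on both arrays, 4 were over 2-fold higher and 6 lower (3.2% and 4.8%), with an SD of 0.58 against 0.81 for the genes. The shares parted in the bright range. With a mean log2 above 15, 27 of 235 genes were over 2-fold higher and 44 were lower, against 0 of 14 negative controls either way. Below a mean of 11, the share of genes past 2-fold, both directions together, was no larger than that of the negative controls. Between means of 7 and 9.3, 8.37% of genes were over 2-fold higher and 4.75% lower, against 6.83% and 9.94% of negative controls. From 9.3 to 11, 165 of 2063 genes were higher and 128 lower, against 7 and 8 of 90 negative controls. Above 9.3 on either array, 3 of 172 negative controls were over 4-fold higher and 6 lower, and of 4697 genes 162 and 114. A single gene near 2-fold, or near 4-fold if dim on 1 array, therefore lies within what negative controls also showed. The text weighs large differences of bright genes and counts over whole gene lists. Each list count is to be read against the shares of all genes, 6.03% higher and 4.65% lower. Genes with a mean log2 of at most 5 seldom passed 2-fold (1.08% higher and 1.42% lower) and pull these shares down. For lists of mostly bright genes the nearer references are 10.8% and 8.98% (above 9.3 on either array) and 7.55% each way (both arrays).

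**Figure D1:**
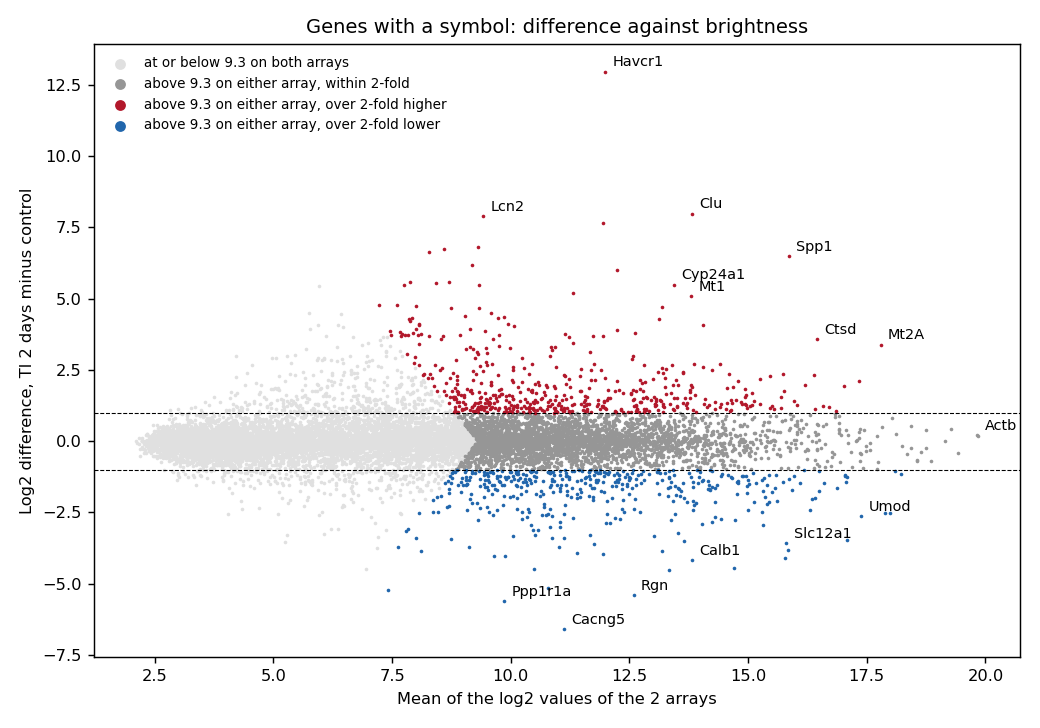
Log2 difference of Tl 2 days minus control (y axis) against the mean log2 value of both arrays (x axis) for 15037 genes, 1 point per gene, with 2-fold limits dashed. Among genes above 9.3 on both arrays the widest differences are those of Clu (7.98) and Spp1 (6.49) upward and Rgn (-5.40) downward, and Havcr1 stands alone at 12.96.

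Among genes bright on both arrays, the largest differences upward belonged to secreted injury proteins, metal-binding proteins, a tubulin and proteins of calcium and phosphate handling. Clu, a secreted chaperone, had 17.81 in Tl 2 days and 9.83 in control, which is 253-fold. Spp1, the matrix protein osteopontin, had 19.11 in Tl 2 days and 12.62 in control (90.2-fold). Cyp24a1, the enzyme that inactivates vitamin D, had 16.19 in Tl 2 days and 10.70 in control (44.9-fold). Slc34a2, a sodium phosphate cotransporter better known from lung and intestine, had 15.53 in Tl 2 days and 10.82 in control, and Trpv5, the apical calcium channel of the distal tubule, had 13.03 in Tl 2 days and 9.60 in control. Of the remaining genes among the 15 highest, Hist2h3c2, a histone gene, differed by 4.07, Osmr, the receptor of oncostatin M, by 3.80, Abcc2, an export pump for conjugated organic anions, by 3.68, the cold-induced RNA-binding protein Rbm3 by 3.66 and Ctsd, a lysosomal protease, by 3.58. All 15 were at least 10-fold higher, the least of them Mt2A at 10.4-fold.

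The largest differences downward included several membrane transporters and enzymes, besides genes of other kinds. Rgn, a calcium-binding protein that is also the lactonase of vitamin C synthesis in rodents, had 9.89 in Tl 2 days and 15.29 in control, so control was 42.2-fold above Tl 2 days. Slc7a12, an amino acid transporter, had 11.07 in Tl 2 days and 15.59 in control, and the monocarboxylate transporter Slc16a7 had 12.46 in Tl 2 days and 16.93 in control. Slco1a6, an organic anion transporter, had 13.72 in Tl 2 days and 17.81 in control. Hnmt, which methylates histamine, differed by -3.81, Cyp2d1, a cytochrome P450, by -3.39, Cyfip2, a subunit of an actin regulator, by -3.85, Slc16a4 of the monocarboxylate transporter family by -3.32, the kinase Cdkl1 by -3.49 and Tmem72 by -3.97. Calb1, Casr, Slc12a1, Egf and Slc4a1 complete the 15 and are described with their tubule segments.

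**Figure D2:**
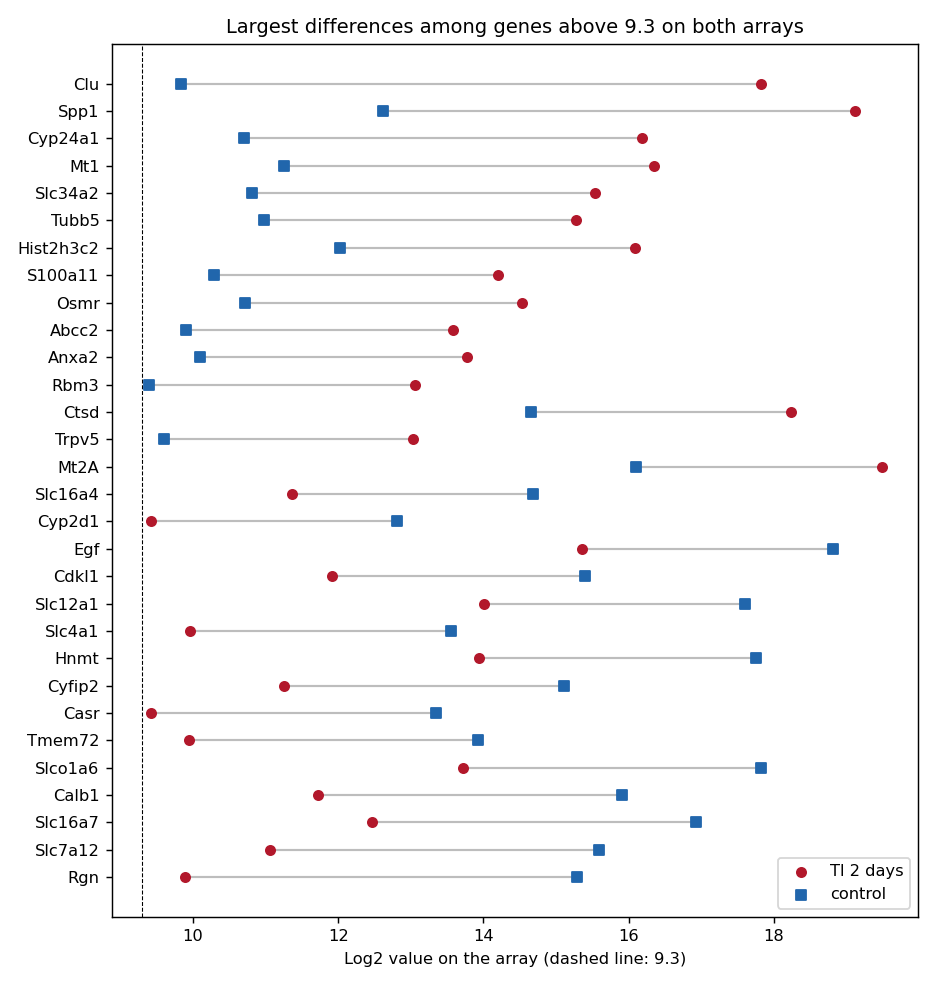
Log2 values in Tl 2 days (circles) and control (squares) for the 15 genes with the largest difference each way among genes above 9.3 (dashed line) on both arrays. The gap is widest for Clu (17.81 against 9.83) at the top and for Rgn (9.89 against 15.29) at the bottom.

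Another 645 genes were bright on 1 array only, 376 of them higher in Tl 2 days and 269 higher in control. Their folds rest on a dim value, so each is given also with values below 9.3 raised to 9.3, which counts the change only from that level. Havcr1, the tubular injury receptor Kim-1, had 18.47 in Tl 2 days and 5.52 in control, a difference of 12.96, or 9.17 counted from 9.3. Fga and Fgb, 2 chains of fibrinogen, differed by 7.65 and 6.73 (6.46 and 2.65 from 9.3). Olr1, a receptor for oxidised lipoprotein, differed by 6.80 (3.40 from 9.3), and Adamts1, a secreted matrix protease, by 6.0 (5.93). Bright in control and dim in Tl 2 days were Cacng5, an auxiliary subunit of the calcium channel family, at 7.83 in Tl 2 days and 14.42 in control, Dnase1, the secreted nuclease of the tubule, at 8.20 in Tl 2 days and 13.36 in control, and Kif5c, a kinesin motor, at 7.62 in Tl 2 days and 11.66 in control. Tnfrsf11b, the soluble decoy receptor osteoprotegerin, differed by -3.72 (-1.67 from 9.3), and Gucy1b2, a subunit of guanylate cyclase, by -3.71 (-3.57). Also among the 10 largest each way were Lcn2, a secreted iron-siderophore binding protein and injury marker, with a difference of 7.89 (4.06 from 9.3), Akr1b8, an aldo-keto reductase, with 6.64 (2.29), the cyclin Ccna2 with 5.57 (2.18), Lif with 5.59 (1.38), Nat8f1 with -4.05 (-2.61), Lrrc66 with -5.21 (-0.72) and Mfsd4a with -3.86 (-0.75). Counting from 9.3 left Lrrc66 and Mfsd4a less than 2-fold apart.

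Metallothioneins, small cysteine-rich proteins that bind zinc, copper and cadmium, were among the largest differences. Mt1 had 16.34 in Tl 2 days and 11.26 in control (33.9-fold), and Mt2A had 19.48 in Tl 2 days and 16.10 in control (10.4-fold). All 4 values lay above 9.3, and Mt2A in Tl 2 days lay near the top of the scale (19.93), where signals may be compressed, which was not tested. Their genes lie side by side on rat chromosome 19, and their promoters are shown because metallothionein genes are known to be induced through metal response elements, which the zinc finger factor Mtf1 binds. The sequences are RefSeq's for the build GRCr8, 300 bases around the start of each gene on the minus strand, at chr19:10832926-10833225 for Mt1 and chr19:10838659-10838958 for Mt2A. Capitals mark every match of the core TGCACNC or TGCGCNC on either strand.
Mt1: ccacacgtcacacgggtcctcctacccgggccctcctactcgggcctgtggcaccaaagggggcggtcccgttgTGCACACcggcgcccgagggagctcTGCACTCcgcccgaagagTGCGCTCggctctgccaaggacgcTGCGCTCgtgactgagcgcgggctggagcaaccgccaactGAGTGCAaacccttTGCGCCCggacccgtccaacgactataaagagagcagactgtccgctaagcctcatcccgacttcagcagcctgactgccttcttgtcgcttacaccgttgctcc
Mt2A: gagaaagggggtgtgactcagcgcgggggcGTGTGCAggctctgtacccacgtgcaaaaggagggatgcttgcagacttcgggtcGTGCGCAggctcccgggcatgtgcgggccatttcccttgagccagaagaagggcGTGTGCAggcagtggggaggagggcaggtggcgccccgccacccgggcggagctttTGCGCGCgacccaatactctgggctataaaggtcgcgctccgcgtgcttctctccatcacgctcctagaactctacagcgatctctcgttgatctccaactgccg
Mt1 holds 6 such matches and Mt2A 4. At least 4 matches stood in 125 of the 27457 promoters of the table, 1 per gene (0.455%), and at least 1 match in 6864 of all 27457. The cut of 4 equals the count of Mt2A, so this share is no test of the promoters shown. A match is a sequence, not a binding site. Mtf1 itself was dim on both arrays, with 8.51 in Tl 2 days and 8.59 in control. Of 17 measured metallothioneins and zinc transporters, 5 were over 2-fold higher and 1 lower. Slc39a14, an importer of zinc and iron, had 10.88 in Tl 2 days and 8.57 in control, and Slc30a7, a zinc transporter of the Golgi, had 11.49 in Tl 2 days and 10.46 in control. The 1 gene lower was Slc39a8, another importer of zinc, at 10.47 in Tl 2 days and 12.31 in control, and Slc30a1, the zinc exporter of the cell surface, differed by -0.73. The 2 importers thus moved in opposite directions.

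Injury markers were higher as a group. Of 28 measured, 18 were over 2-fold higher and 1 was lower, with a median difference of 2.08 where the median over all genes is 0. The median is 0.09 with values below 9.3 raised to 9.3. Among the 13 bright on both arrays, 7 were higher and 1 lower. Cd44, a receptor for hyaluronan, had 11.83 in Tl 2 days and 7.35 in control, and Vcam1, an adhesion molecule, had 10.12 in Tl 2 days and 8.59 in control. Krt8 and Vim, filament proteins of dedifferentiating tubule cells, had 12.31 in Tl 2 days and 10.13 in control for Krt8 and 13.79 in Tl 2 days and 11.64 in control for Vim. Not all listed markers followed: B2m and Cst3, small filtered proteins, differed by only 0.06 and 0.00, the matricellular protein Ccn2 by -0.29, and Tff3, a secreted trefoil peptide, had 13.22 in Tl 2 days and 14.68 in control. In a bulk tissue sample, fewer cells of a type and less RNA per cell cannot be told apart, and this holds for every list below.

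The axis of interleukin 6 type cytokines moved at several levels, from ligand to receptor to target. Lif, a ligand, had 10.68 in Tl 2 days and 5.09 in control. Osmr, a receptor chain, had 14.53 in Tl 2 days and 10.72 in control, and Il6st, the signalling chain that these receptors share, had 14.01 in Tl 2 days and 12.70 in control. Stat3, the transcription factor below them, had 14.65 in Tl 2 days and 12.92 in control, and Socs3, its target and feedback inhibitor, had 10.49 in Tl 2 days and 5.01 in control. The receptor of Lif itself, Lifr, went the other way, at 15.21 in Tl 2 days and 16.52 in control. Il6 was dim on both arrays, with 5.06 in Tl 2 days and 4.15 in control. Jak1 and Jak2, the kinases of the pathway, differed by 0.13 and 0.02. Over the whole list of 31 measured cytokine and Stat3 genes, 11 were over 2-fold higher and 1 lower. Tnfrsf12a, the receptor of the cytokine Tweak, had 12.06 in Tl 2 days and 6.59 in control, and Tnfrsf1a, a receptor of tumour necrosis factor, had 10.45 in Tl 2 days and 8.09 in control.

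Acute phase and coagulation genes followed, with 13 of 32 measured over 2-fold higher and none lower. Beside the fibrinogen chains, Serpina3n, a protease inhibitor, had 12.28 in Tl 2 days and 6.10 in control. F3, tissue factor, which starts coagulation, had 13.10 in Tl 2 days and 10.39 in control, and Plat, the plasminogen activator of fibrin breakdown, had 13.21 in Tl 2 days and 11.97 in control. Plau, the urokinase of the tubule, differed by -0.45. Cd55, an inhibitor of complement, had 10.33 in Tl 2 days and 8.81 in control. Among 31 measured chemokine genes, 9 were over 2-fold higher and 1 lower. Cxcl11 had 9.96 in Tl 2 days and 6.03 in control, Ccl20 had 11.10 in Tl 2 days and 7.17 in control, and Ccl2, which attracts monocytes, had 11.04 in Tl 2 days and 7.94 in control. Cxcl12, a constitutive chemokine, was the 1 lower, at 13.43 in Tl 2 days and 15.03 in control. Of 15 measured NF-kB genes 7 were higher and none lower, among them Nfkb1 with 10.62 in Tl 2 days and 8.97 in control and the inhibitor Nfkbia with 10.54 in Tl 2 days and 8.95 in control. Genes of the interferon response stood apart, with 2 higher and 2 lower of 29 measured and a median difference of 0.00. These shares (6.90% each way) lay near those of all genes (6.03% and 4.65%).

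Markers of white cells were mostly dim. Of 20 measured macrophage genes, 9 were over 2-fold higher and none lower, but only 3 exceeded 9.3. Fcer1g, a signalling chain of Fc receptors, had 11.92 in Tl 2 days and 10.30 in control, Lyz2, lysozyme, had 16.48 in Tl 2 days and 15.75 in control, and Cd74, the invariant chain, had 13.46 in Tl 2 days and 13.59 in control. The log2 of the summed signal of this list was 16.73 in Tl 2 days and 16.09 in control. None of 13 measured neutrophil genes exceeded 9.3, and 1 was over 2-fold higher. Of 9 measured red cell genes none was over 2-fold higher and 1 was lower, Slc4a1, which intercalated cells also express. The haemoglobin chains were within 2-fold, with Hba-a1 at 14.58 in Tl 2 days and 15.55 in control and Hbb at 14.09 in Tl 2 days and 14.91 in control. The part of these cells in the cytokine and acute phase genes was not tested.

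Immediate early genes, which growth and stress signals switch on within minutes, were higher in 13 of 27 measured and lower in none, with a median of 0.83 (0 with values below 9.3 raised to 9.3). Egr1, a zinc finger factor, had 15.22 in Tl 2 days and 12.50 in control, Jun had 11.71 in Tl 2 days and 10.53 in control, and Dusp6, a phosphatase that restrains Erk, had 13.48 in Tl 2 days and 11.68 in control. Bright in Tl 2 days only were Myc, with 11.07 in Tl 2 days and 6.42 in control, Klf6, with 10.79 in Tl 2 days and 7.49 in control, Fosl2, with 10.28 in Tl 2 days and 7.43 in control, Junb, with 9.73 in Tl 2 days and 7.05 in control, and Zfp36, which destabilises cytokine mRNA, with 9.84 in Tl 2 days and 7.26 in control. The response was not uniform: Jund had 12.09 in Tl 2 days and 11.51 in control, and Dusp1, a stress-induced phosphatase, had 9.96 in Tl 2 days and 10.58 in control. Fos, the best known member, was dim on both arrays with 6.57 in Tl 2 days and 5.74 in control.

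Genes of the EGF family moved in both directions, also among the ligands. Egf, made by the thick ascending limb and the distal tubule, had 15.35 in Tl 2 days and 18.81 in control. Hbegf, a ligand known to be induced on injury, had 9.99 in Tl 2 days and 8.15 in control, and Nrg1, the ligand of Erbb3 and Erbb4, had 13.30 in Tl 2 days and 11.18 in control. Btc, another ligand, had 9.56 in Tl 2 days and 10.73 in control, and the receptor Erbb4 had 10.21 in Tl 2 days and 11.75 in control. Errfi1, an inhibitor of the EGF receptor, had 14.43 in Tl 2 days and 12.92 in control. In all, 4 of 16 measured members were over 2-fold higher and 3 lower. Other growth factor genes likewise went both ways, with 8 higher and 9 lower of 56 measured. Fgf1 had 14.52 in Tl 2 days and 12.55 in control, Met, the receptor of hepatocyte growth factor, had 15.33 in Tl 2 days and 13.99 in control, and Igfbp1, which binds insulin-like growth factors, had 12.46 in Tl 2 days and 9.27 in control. Id4, an inhibitor of helix-loop-helix factors, had 8.87 in Tl 2 days and 12.16 in control, Bmp4 had 8.20 in Tl 2 days and 10.39 in control, and Igfbp5 had 14.62 in Tl 2 days and 16.40 in control.

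In every nephron segment listed, more markers were over 2-fold lower than higher, but the shares differed by segment. In the thick ascending limb, where salt is reabsorbed without water, 10 of 15 measured genes were over 2-fold lower and none higher. The cotransporter Slc12a1 had 14.01 in Tl 2 days and 17.60 in control, the potassium channel Kcnj1 had 14.05 in Tl 2 days and 16.54 in control, the calcium-sensing receptor Casr had 9.42 in Tl 2 days and 13.35 in control and uromodulin, Umod, had 16.07 in Tl 2 days and 18.70 in control. Ppp1r1a, a phosphatase inhibitor, had 7.05 in Tl 2 days and 12.67 in control, and Bsnd, a subunit of chloride channels, had 8.17 in Tl 2 days and 10.53 in control, so both were dim in Tl 2 days. Cldn16 and Cldn10, claudins of its tight junctions, differed by -1.39 and -1.64, whereas Cldn19 had 11.44 in Tl 2 days and 10.80 in control.

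In the distal convoluted and connecting tubule, 8 of 14 measured genes were over 2-fold lower and 1 higher. The thiazide-sensitive cotransporter Slc12a3 had 15.36 in Tl 2 days and 16.81 in control, its regulator Wnk1 had 16.34 in Tl 2 days and 17.78 in control, and Fxyd2, a subunit of the sodium pump, had 16.43 in Tl 2 days and 17.66 in control. For calcium transport the members split. Calb1, the calcium-binding protein that ferries calcium across the cell, had 11.72 in Tl 2 days and 15.90 in control, and Slc8a1, the exchanger that exports it, had 10.85 in Tl 2 days and 13.54 in control, while the entry channel Trpv5 was the 1 gene higher. In the same direction as Trpv5, the vitamin D inactivating Cyp24a1 was higher, while Vdr, the vitamin D receptor, had 11.49 in Tl 2 days and 11.34 in control. Kl, the coreceptor Klotho for the phosphate hormone Fgf23, had 14.30 in Tl 2 days and 15.68 in control, Pth1r, the parathyroid hormone receptor, had 12.70 in Tl 2 days and 13.98 in control, and Slc34a1, the main phosphate cotransporter of the proximal tubule, had 16.44 in Tl 2 days and 17.63 in control. Slc20a1, a widely expressed phosphate transporter, had 13.63 in Tl 2 days and 12.11 in control. Vitamin D, Klotho and phosphate genes as a list had 5 members over 2-fold lower and 2 higher of 17 measured.

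In the collecting duct, 7 of 16 measured principal cell genes and 6 of 15 measured intercalated cell genes were over 2-fold lower, and none of either list was higher. The 7 include Aqp6, which the principal cell list held though this channel belongs to intercalated cells. Aqp6 had 12.90 in Tl 2 days and 14.38 in control. The water channels Aqp2 and Aqp3 had 10.99 in Tl 2 days and 13.07 in control for Aqp2 and 10.18 in Tl 2 days and 11.58 in control for Aqp3. Hsd11b2, which shields the mineralocorticoid receptor from glucocorticoids, had 11.88 in Tl 2 days and 13.40 in control, and that receptor, Nr3c2, had 9.29 in Tl 2 days and 11.15 in control. Subunits of the sodium channel were not alike, with Scnn1a at 9.02 in Tl 2 days and 10.11 in control and Scnn1b at 11.79 in Tl 2 days and 11.70 in control. Among intercalated cell genes, the anion exchanger Slc4a1, which red cells also express, had 9.96 in Tl 2 days and 13.56 in control, the ammonia channel Rhcg had 11.32 in Tl 2 days and 13.40 in control and the proton pump subunit Atp6v1b1 had 11.73 in Tl 2 days and 13.39 in control. Slc26a4, the exchanger pendrin, had 12.40 in Tl 2 days and 11.91 in control, and the transcription factor Foxi1 had 11.48 in Tl 2 days and 11.66 in control. The listed genes of a cell type thus did not move as one block.

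Proximal tubule genes were more often lower than higher. Of 47 measured, 12 were over 2-fold lower (25.5%) and 5 higher (10.6%), 34 lay below 0, and the median was -0.59. Among all genes above 9.3 on either array, 8.98% were lower and 10.8% higher, so the share higher was near that of such genes. Lower were Slc9a3, the sodium proton exchanger, with 9.17 in Tl 2 days and 12.56 in control, the brush border peptidases Mep1b, with 9.37 in Tl 2 days and 11.96 in control, and Anpep, with 15.09 in Tl 2 days and 17.51 in control, alkaline phosphatase Alpl, with 12.18 in Tl 2 days and 14.72 in control, and the amino acid transporter Slc7a13, with 16.62 in Tl 2 days and 19.14 in control. Higher were Slc2a2, the glucose transporter of the basal side, with 12.59 in Tl 2 days and 9.3 in control, and Slc13a1, a sulfate transporter, with 17.53 in Tl 2 days and 15.23 in control. Lrp2, the endocytic receptor megalin, had 18.45 in Tl 2 days and 18.82 in control, the glucose cotransporter Slc5a2 had 12.02 in Tl 2 days and 12.08 in control, and Slc22a2, which takes up organic cations, had 14.30 in Tl 2 days and 16.50 in control. Transcription factors of the kidney were lower in 6 and higher in 2 of 28 measured, with Hnf4a at 13.85 in Tl 2 days and 14.69 in control, Sim1 at 9.15 in Tl 2 days and 11.63 in control, Esrrg at 10.21 in Tl 2 days and 11.85 in control and Pax8 at 14.53 in Tl 2 days and 13.88 in control.

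Endothelial genes had no member past the limit, whereas 25% of stromal genes were over 2-fold higher, against 6.03% of all genes. Podocyte genes had 8.33% past it each way, against 6.03% higher and 4.65% lower over all genes. None of 19 measured endothelial genes passed 2-fold either way, with Kdr, the receptor of Vegfa, at 11.67 in Tl 2 days and 11.94 in control and Cdh5 at 11.98 in Tl 2 days and 11.66 in control. Of 12 measured podocyte genes 1 was higher, Cd2ap, with 15.67 in Tl 2 days and 14.43 in control, and 1 lower, Col4a4, with 11.08 in Tl 2 days and 12.86 in control, while Podxl had 15.07 in Tl 2 days and 15.09 in control. Of 16 measured stromal genes 4 were higher and 1 lower, with matrix Gla protein, Mgp, at 14.82 in Tl 2 days and 12.42 in control and decorin, Dcn, at 14.88 in Tl 2 days and 13.74 in control.

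**Figure D3:**
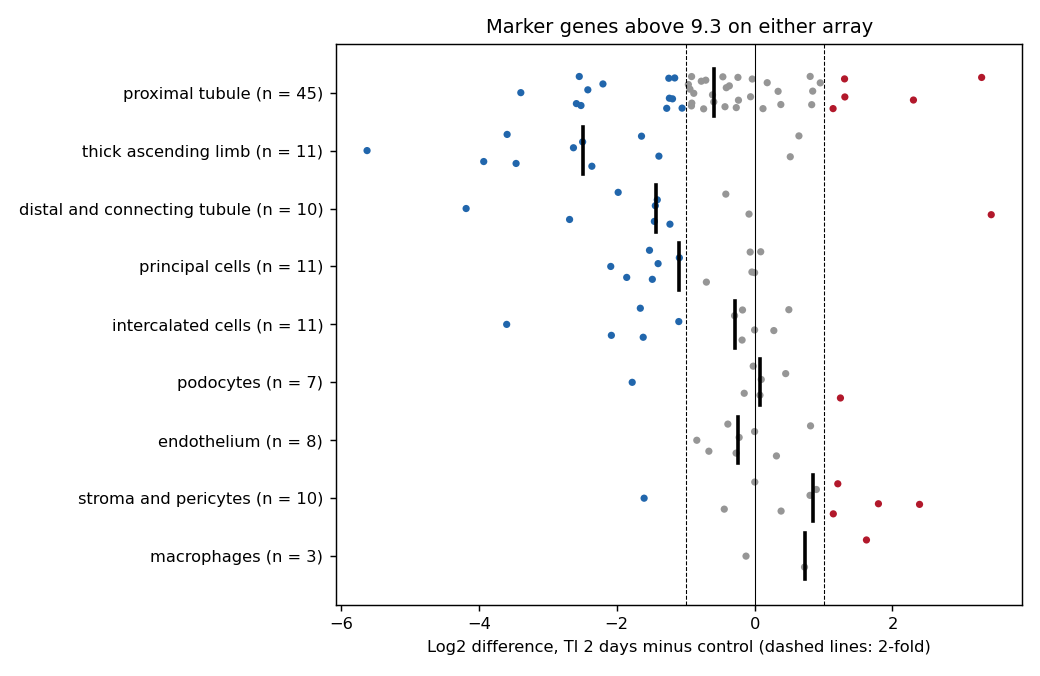
Log2 difference of Tl 2 days minus control (x axis) for marker genes of 9 kidney cell types above 9.3 on either array, 1 point per gene, with the list median as a bar and 2-fold limits dashed. The medians run from -2.49 in the thick ascending limb to 0.85 in stroma and pericytes, and a gene dim on 1 array enters only by being bright on the other.

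Sodium, potassium and junction genes past the limit included several of the segment markers. Of 26 measured pump and cotransporter genes 1 was higher (3.85%) and 6 lower (23.1%), against 6.03% and 4.65% of all genes. Those lower were 5 segment markers named above and Stk39, a kinase that activates the cotransporters, at 13.17 in Tl 2 days and 14.43 in control. Atp1b1, the beta subunit of the sodium potassium pump, had 16.36 in Tl 2 days and 16.34 in control. Of 57 measured potassium channel genes 3 were over 2-fold higher (5.26%) and 7 lower (12.3%), but only 4 of the 57 exceeded 9.3. Beside Kcnj1, these were Kcnj15, with 12.06 in Tl 2 days and 13.09 in control, Kcnj16, with 14.25 in Tl 2 days and 14.67 in control, and Kcnk1, with 11.73 in Tl 2 days and 10.83 in control. Claudins and other junction genes were 3 higher (10.7%) and 4 lower (14.3%) of 28 measured, against 6.03% and 4.65% of all genes. Cldn4 and Cldn7 had 9.98 in Tl 2 days and 5.76 in control for Cldn4 and 9.75 in Tl 2 days and 7.26 in control for Cldn7, while occludin, Ocln, had 12.67 in Tl 2 days and 14.24 in control.

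Genes of cell division were higher as a group. Of 45 measured mitosis genes, 44 were over 2-fold higher and none lower, with a median of 2.99, and of 40 measured DNA replication genes 25 were higher and none lower, with a median of 1.23. Most were dim in control: 21 mitosis genes exceeded 9.3 in Tl 2 days, and 1 did so on both arrays. With values below 9.3 raised to 9.3 the median of both lists is 0, since most of their members were dim on both arrays. The gene bright on both was Kif11, the motor that separates spindle poles, with 12.17 in Tl 2 days and 10.17 in control. Mki67, the marker Ki-67, had 13.91 in Tl 2 days and 8.71 in control, the cyclin Ccnb1 had 10.37 in Tl 2 days and 5.63 in control, the mitotic kinase Plk1 had 9.99 in Tl 2 days and 5.21 in control and the spindle protein Tpx2 had 11.90 in Tl 2 days and 7.58 in control. Among replication genes bright on both arrays, the sliding clamp Pcna had 12.76 in Tl 2 days and 10.61 in control, the nucleotide reductase subunit Rrm1 had 13.80 in Tl 2 days and 11.75 in control, and the ligase Lig1 had 10.79 in Tl 2 days and 9.31 in control. The other reductase subunit, Rrm2, had 11.40 in Tl 2 days and 7.52 in control, and the helicase subunit Mcm7 had 10.43 in Tl 2 days and 7.99 in control.

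Regulators of the cycle were less one-sided, with 13 of 28 measured higher and 1 lower. Ccnd1, the cyclin of early G1, had 11.72 in Tl 2 days and 12.27 in control, while Ccnd2 had 9.59 in Tl 2 days and 8.08 in control and Cdk4 had 10.43 in Tl 2 days and 9.41 in control. Rbl1 and Rbl2, relatives of the retinoblastoma protein, moved apart, with 10.88 in Tl 2 days and 8.09 in control for Rbl1 and 9.72 in Tl 2 days and 11.08 in control for Rbl2. Of 26 measured p53 targets 5 were higher (19.2%) and 1 lower (3.85%), against 6.03% and 4.65% of all genes. Among them Gadd45a had 12.43 in Tl 2 days and 11.22 in control. Rrm2b, a nucleotide reductase subunit of resting cells, had 11.65 in Tl 2 days and 13.23 in control. The inhibitor Cdkn1a was dim on both arrays, with 7.23 in Tl 2 days and 4.78 in control.

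Promoters of 2 mitosis genes are shown because genes of this phase are known to share a CCAAT box and a cell cycle homology region (TTTGAA). Capitals mark CCAAT and TTTGAA on either strand in RefSeq's 300 bases around the gene start, build GRCr8, at chr1:186147408-186147707 on the plus strand for Plk1 and chr1:199952544-199952843 on the minus strand for Mki67.
Plk1: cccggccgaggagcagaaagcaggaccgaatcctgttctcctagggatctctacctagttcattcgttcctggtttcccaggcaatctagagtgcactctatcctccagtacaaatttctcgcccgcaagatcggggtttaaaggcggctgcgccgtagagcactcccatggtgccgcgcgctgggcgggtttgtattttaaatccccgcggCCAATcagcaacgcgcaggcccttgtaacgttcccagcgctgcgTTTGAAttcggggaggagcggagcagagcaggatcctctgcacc
Mki67: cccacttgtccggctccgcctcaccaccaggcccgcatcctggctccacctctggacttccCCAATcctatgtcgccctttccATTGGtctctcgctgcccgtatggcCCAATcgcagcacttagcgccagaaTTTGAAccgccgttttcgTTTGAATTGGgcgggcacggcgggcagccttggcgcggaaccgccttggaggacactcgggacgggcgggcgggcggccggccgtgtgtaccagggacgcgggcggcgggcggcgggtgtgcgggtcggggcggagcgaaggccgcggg
Plk1 holds 1 CCAAT and 1 TTTGAA, and Mki67 holds 4 and 2. A promoter was listed for 39 of the 45 measured mitosis genes. TTTGAA occurred in 28 of the 39 (71.8%), against 18.1% of all 27457 promoters, and both motifs together in 23 (59.0%), against 7.25% of all. Of 33 promoters of replication genes, 3 held TTTGAA (9.09%). These shares describe the letters of the windows and say nothing on what binds there.

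Cytoskeleton genes were also higher. Of 21 measured genes of tubulins and tubulin-binding proteins 9 were over 2-fold higher and none lower, and 8 of the 9 were bright on both arrays. Tubb5 had 15.28 in Tl 2 days and 10.98 in control (19.7-fold), Tuba1c had 15.35 in Tl 2 days and 12.76 in control, Tubb4b had 12.74 in Tl 2 days and 10.20 in control, and Stmn1, a protein that destabilises microtubules, had 13.86 in Tl 2 days and 11.80 in control. Among 53 measured genes of actin, annexins and S100 proteins, 21 were higher and 1 lower. S100a11 had 14.20 in Tl 2 days and 10.29 in control and Anxa2 had 13.77 in Tl 2 days and 10.10 in control, and S100a10, which binds Anxa2, had 12.49 in Tl 2 days and 9.19 in control. The actin-binding proteins Tagln2 and Tpm4 had 14.39 in Tl 2 days and 12.004 in control for Tagln2 and 16.60 in Tl 2 days and 14.31 in control for Tpm4. Actb itself had 19.93 in Tl 2 days and 19.72 in control, at the top of the scale of the arrays, where the highest value was 19.93. Annexins were not alike, since Anxa6 had 11.56 in Tl 2 days and 12.38 in control.

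Of 48 measured matrix and protease genes 18 were higher and 1 lower. Fibronectin, Fn1, had 14.78 in Tl 2 days and 12.87 in control, the basement membrane chain Col4a1 had 11.56 in Tl 2 days and 9.82 in control and biglycan, Bgn, had 15.58 in Tl 2 days and 14.28 in control. The 1 lower was Col4a4, a chain of the mature glomerular basement membrane. Of 26 measured integrins and cadherins 5 were higher and 2 lower, with Cdh6, a cadherin of the developing proximal tubule, at 11.56 in Tl 2 days and 9.19 in control, Itgb1 at 16.66 in Tl 2 days and 15.39 in control and the kidney cadherin Cdh16 at 13.19 in Tl 2 days and 14.32 in control. Of 23 measured keratins and other filament genes 5 were higher and none lower, including the lamins Lmnb1, with 10.81 in Tl 2 days and 7.59 in control, and Lmna, with 11.02 in Tl 2 days and 9.65 in control.

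Genes of protein synthesis were shifted upward together. Of 68 measured cytoplasmic ribosomal protein genes, 34 were over 2-fold higher and none lower, the median was 1.0, and all 68 had a positive difference. Members of a complex measured on the same arrays are not independent observations. At the upper end stood Rps16, with 14.20 in Tl 2 days and 12.30 in control, and Rpl6, with 13.21 in Tl 2 days and 11.52 in control, and at the lower end Rps29, with 17.50 in Tl 2 days and 17.18 in control. Ribosome assembly factors were higher in 15 and lower in none of 58 measured, with the nucleolar proteins Nop58 at 12.29 in Tl 2 days and 10.004 in control and Npm1 at 16.46 in Tl 2 days and 14.92 in control. Of 41 measured translation factors 7 were higher and none lower. Eif4a1, the helicase of initiation, had 15.48 in Tl 2 days and 13.61 in control, while its paralog Eif4a2 had 14.17 in Tl 2 days and 14.25 in control, and Eif2s1, the alpha subunit of eIF2, had 11.03 in Tl 2 days and 10.34 in control. Aminoacyl tRNA synthetases were higher in 6 and lower in none of 19 measured, with Iars1 at 11.34 in Tl 2 days and 10.20 in control.

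Mitochondrial genes did not show this shift. None of 66 measured mitochondrial ribosomal protein genes and none of 63 nuclear genes of complexes I, III and IV, cytochrome c and the ATP synthase passed 2-fold in either direction. In the respiratory complexes 58 of 63 differences were negative and 1 was positive, with a median of -0.40 and a range from -0.89 to 0.03. None of these differences reached 2-fold. Single negative controls above 9.3 on both arrays had an SD of 0.58. It was smaller in the brightest ranges, at 0.26 over 9 controls with means of 13 to 15 and 0.24 over 14 above 15. Examples are Ndufb8 of complex I, with 10.32 in Tl 2 days and 10.74 in control, Uqcrc2 of complex III, with 13.86 in Tl 2 days and 14.30 in control, and Atp5f1a of the ATP synthase, with 16.58 in Tl 2 days and 16.98 in control. Of 21 measured TCA cycle enzymes 2 were over 2-fold lower and none higher, with a median of -0.54. The isocitrate dehydrogenase Idh2 had 13.58 in Tl 2 days and 15.13 in control, Idh3g had 13.40 in Tl 2 days and 14.43 in control, the malate dehydrogenase Mdh2 had 13.73 in Tl 2 days and 13.76 in control, and citrate synthase, Cs, had 13.72 in Tl 2 days and 13.91 in control. Sdha, which is also a subunit of respiratory complex II, had 13.46 in Tl 2 days and 14.41 in control. Among regulators of mitochondrial biogenesis, the coactivator Ppargc1a had 13.38 in Tl 2 days and 14.74 in control and the receptor Esrrg differed by -1.65, while Nrf1 had 12.11 in Tl 2 days and 11.54 in control and Tfam was dim on both arrays with 8.74 in Tl 2 days and 8.74 in control.

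**Figure D4:**
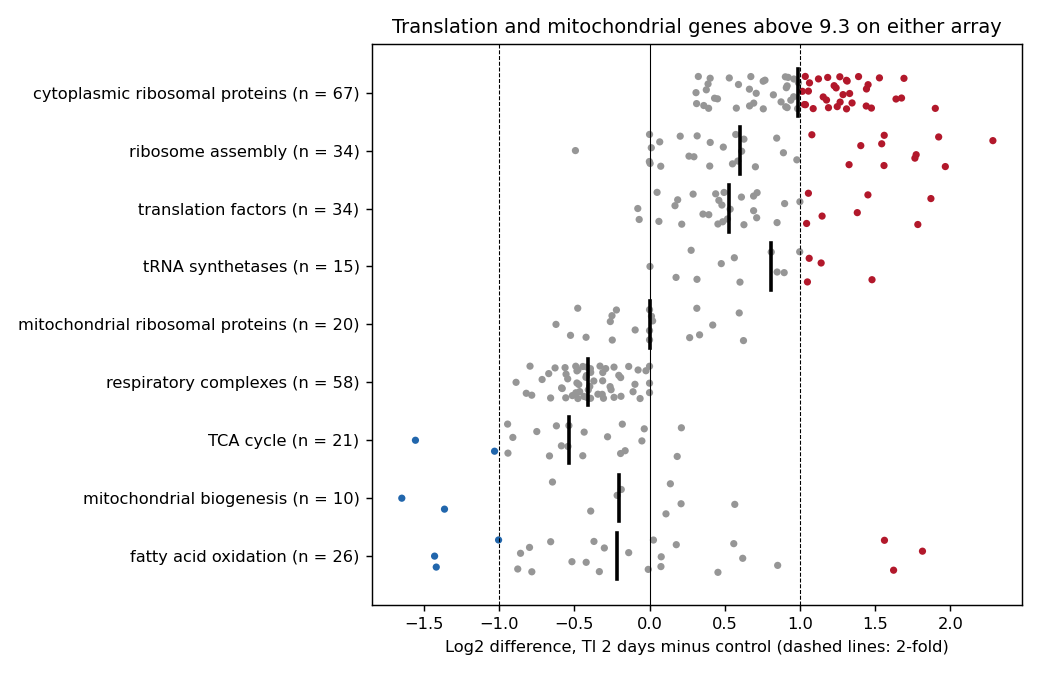
Log2 difference of Tl 2 days minus control (x axis) for genes of translation and of mitochondria above 9.3 on either array, 1 point per gene, with the list median as a bar and 2-fold limits dashed. All 67 points of the cytoplasmic ribosomal proteins lie right of 0, and none of the 58 points of the respiratory complexes does.

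Metabolism of the tubule was lower in several branches. Amino acid breakdown had 20 of 53 measured genes over 2-fold lower and 1 higher, with a median of -0.76. Oat, which breaks down ornithine, had 12.58 in Tl 2 days and 15.48 in control, Acmsd of tryptophan breakdown had 13.78 in Tl 2 days and 16.20 in control, Mccc1 of leucine breakdown had 9.83 in Tl 2 days and 12.40 in control and Dmgdh of choline breakdown had 10.28 in Tl 2 days and 12.25 in control. The 1 higher was Gda, guanine deaminase, which the list included though it breaks down a purine and not an amino acid. Gda had 11.43 in Tl 2 days and 8.09 in control. In gluconeogenesis and fructose metabolism, 8 of 13 measured genes were lower and none higher. Fructokinase, Khk, had 9.17 in Tl 2 days and 11.56 in control, Fbp1, which makes fructose 6-phosphate, had 15.66 in Tl 2 days and 16.68 in control and the fructose transporter Slc2a5 had 8.12 in Tl 2 days and 10.14 in control, whereas Pck1, an entry enzyme of gluconeogenesis, had 15.45 in Tl 2 days and 15.48 in control.

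Glycolysis had 4 of 29 measured genes higher and 1 lower, and its lactate dehydrogenase isoforms moved apart. Ldha, the muscle type, had 14.55 in Tl 2 days and 12.39 in control, and Ldhb, the heart type, had 13.31 in Tl 2 days and 15.002 in control. Slc16a1, a lactate transporter, had 10.55 in Tl 2 days and 9.38 in control, and Gapdh had 17.23 in Tl 2 days and 16.58 in control. Of 30 measured fatty acid oxidation enzymes 3 were higher and 5 lower, with Hadh at 13.12 in Tl 2 days and 14.54 in control and Acsl4 at 13.64 in Tl 2 days and 11.82 in control. Of 32 measured peroxisomal genes none was higher and 3 lower, with the racemase Amacr at 10.75 in Tl 2 days and 13.30 in control. In contrast, cholesterol synthesis had 6 of 23 measured genes higher and none lower, with Cyp51 at 11.31 in Tl 2 days and 9.58 in control, Sqle at 10.63 in Tl 2 days and 9.18 in control and Insig1, a feedback regulator of the pathway, at 12.40 in Tl 2 days and 10.83 in control. Plin2, which coats lipid droplets, had 11.62 in Tl 2 days and 7.89 in control. Xenobiotic enzymes split, with 11 higher and 12 lower of 60 measured. Members of the Cyp2d family were lower, among them Cyp2d5, with 8.25 in Tl 2 days and 12.73 in control, and Ugt2b7, a glucuronosyltransferase, had 12.11 in Tl 2 days and 8.05 in control. Probe sets of such near-identical families may share signal, and this was not tested.

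Stress responses differed in which branch moved. Among Nrf2 targets, 13 of 40 measured were over 2-fold higher and 3 lower. Srxn1, which repairs oxidised peroxiredoxin, had 11.67 in Tl 2 days and 7.0 in control, Hmox1, haem oxygenase, had 9.53 in Tl 2 days and 5.84 in control, Gstp1 had 14.73 in Tl 2 days and 12.06 in control, and Txnrd1, thioredoxin reductase, had 13.40 in Tl 2 days and 12.04 in control. The glutathione synthesis genes Gclc and Gclm had 19.20 in Tl 2 days and 19.63 in control for Gclc and 18.50 in Tl 2 days and 19.21 in control for Gclm, near the top of the scale, and Osgin1 had 10.65 in Tl 2 days and 13.54 in control. Targets of Atf4 were 8 higher and 2 lower of 31 measured with a median of 0.00. Asns, asparagine synthetase, had 10.68 in Tl 2 days and 8.03 in control and Atf4 itself had 13.72 in Tl 2 days and 12.69 in control, but Psat1 of serine synthesis had 12.25 in Tl 2 days and 13.31 in control, Cth of cysteine synthesis had 14.07 in Tl 2 days and 15.89 in control, and Ddit3 was dim with 8.15 in Tl 2 days and 8.24 in control.

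Chaperone genes mostly stayed within 2-fold, but more had a positive than a negative difference. Of 25 measured genes of the endoplasmic reticulum 3 were higher (12%) and none lower, and 22 of the 25 exceeded 9.3 on both arrays. The share higher was 6.03% over all genes and 10.8% over those above 9.3 on either array, so 12% lay near the latter. Among these 25, 20 had a positive difference and 4 a negative one, with a median of 0.44. The highest were Pdia4, with 12.16 in Tl 2 days and 10.94 in control, and Hspa5, with 17.30 in Tl 2 days and 16.11 in control. Of 33 measured heat shock genes 4 were higher (12.1%, again near 10.8%) and none lower. Among these 33, 24 had a positive difference and 6 a negative one, with a median of 0.28. The small heat shock protein Cryab had 13.77 in Tl 2 days and 12.24 in control. The chaperonin subunits had 11.64 in Tl 2 days and 10.36 in control for Cct4 and 12.54 in Tl 2 days and 11.30 in control for Cct3. The inducible Hspa1a was dim on both arrays, with 5.58 in Tl 2 days and 5.74 in control. Among 31 measured apoptosis regulators 4 were higher and none lower, among them Mcl1, an inhibitor of cell death, with 15.001 in Tl 2 days and 13.82 in control, while its relative Bcl2l1 had 14.53 in Tl 2 days and 14.16 in control. Iron genes were 7 higher and 1 lower of 24 measured, with the importer Slc11a2 at 15.08 in Tl 2 days and 13.78 in control, the ferritin chains Fth1 at 18.70 in Tl 2 days and 18.15 in control and Ftl1 at 17.81 in Tl 2 days and 17.63 in control, and the transferrin receptor Tfrc at 12.62 in Tl 2 days and 12.40 in control.

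Set side by side over all measured members, the lists spread from mitosis, DNA replication, injury markers and ribosomal proteins on the higher side to the thick ascending limb, gluconeogenesis, the distal convoluted and connecting tubule, the collecting duct and amino acid breakdown on the lower side. The share of members over 2-fold higher ranged up to 97.8% in mitosis genes, against 6.03% of all genes, and the share over 2-fold lower up to 66.7% in the thick ascending limb, against 4.65% of all genes. The lists were chosen with earlier results of these data known, so their order describes these 2 arrays only.

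**Figure D5:**
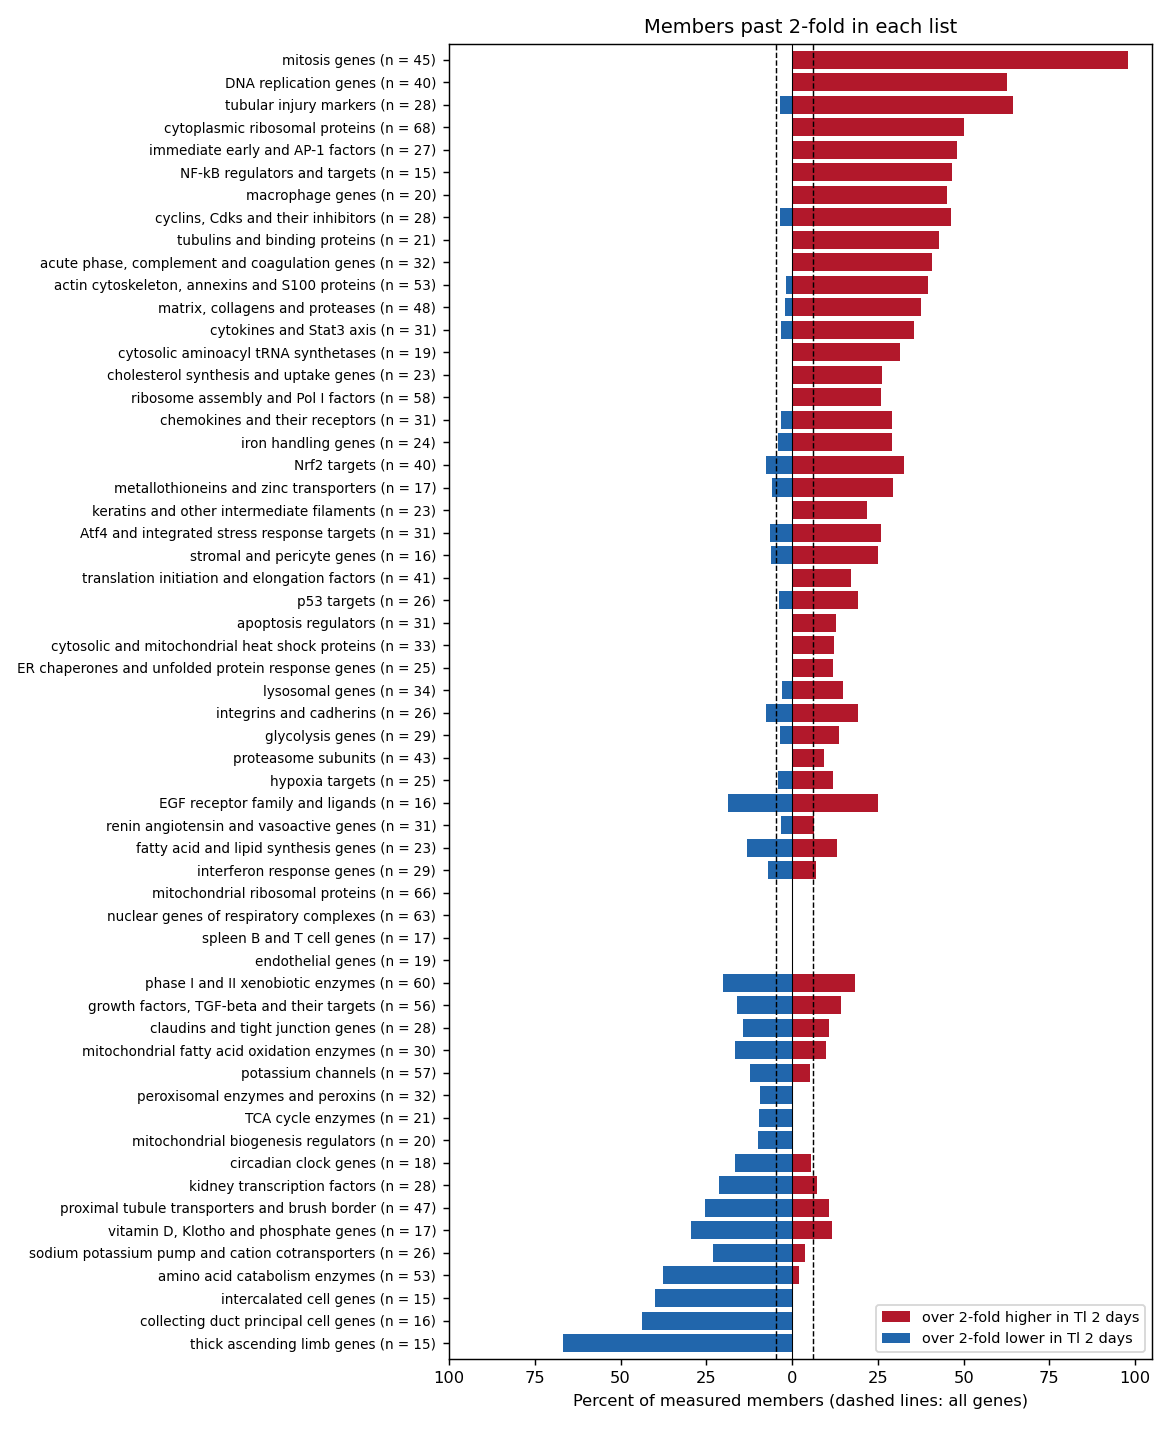
Percent of the measured members of each list of at least 15 measured genes that were over 2-fold higher (right) or lower (left) in Tl 2 days than in control, with the shares of all genes dashed (6.03% and 4.65%). The bars run from mitosis genes (97.8% higher) at the top to the thick ascending limb (66.7% lower) at the bottom.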

How the data were processed

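Rat kidney RNA was purified with Trizol and RNeasy columns and hybridized to Clariom S arrays by the authors, 1 array per group, and analysed by them in Transcriptome Analysis Console, whose version, summarization and normalization are not given in the sources used here. What was deposited is a log2 signal for every probe set on every array. The base was read from the highest value, since 2 raised to it is 999952. From these values the mean over probe sets of a gene was taken (10 genes had more than 1) and control was subtracted from Tl 2 days. Genes were counted past 2-fold. Symbols came from the platform annotation, all of whose gene IDs were found in RefSeq. No test was run, since each group had 1 array, so precision cannot be stated. The scripts were checked on made-up input with known answers. The members and the 63 gene lists were chosen with earlier results of these data known. Genes named were drawn from the 15 with the largest difference each way among genes above 9.3 on both arrays, the 10 each way among genes above it on 1 array, up to 6 members per list above 9.3 with the largest differences, up to 4 members a list is best known for, the 5 brightest per array, and genes the study assayed otherwise, and not all of these 368 are printed. A few further list members are named as examples after their values were seen. Alternatives were quantile normalization, centring on 2 gene sets, raising values below 9.3 to 9.3, limits of 1.5-fold and 4-fold, other brightness limits, and the brightest probe set of a gene. The work was done in Python 3.11.15 with pandas 2.3.3, numpy 2.4.6 and, for plots, matplotlib 3.10.9.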

Additional observations from a re-analysis of the deposited data

Results flagged for a closer look

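The difference from control ran in opposite directions past 2-fold in Tl 2 days and in Tl 5 days for 7 genes above 9.3 on either array of this comparison. Both times share the control array and each has a single array, so no test of the 2-day against the 5-day difference was made. Insig1, a feedback regulator of cholesterol synthesis, differed by 1.56 in Tl 2 days and by -1.06 in Tl 5 days. Ptprq, a receptor phosphatase, differed by 2.07 and -2.11, and Serpinb9, an inhibitor of granzyme B, by 1.19 and -1.12. Lower at 2 days and higher at 5 days were G6pc1, the last enzyme of glucose release, with -1.01 and 2.08, Fmo2, a flavin monooxygenase, with -1.08 and 1.36, Pbld1 with -1.36 and 1.24, and Zhx3, a zinc finger homeobox factor, with -1.11 and 1.45.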

How the results depend on the processing

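Quantile normalization, centring and the choice of probe set kept every count within 1.5-fold, and no list median or named gene called past 2-fold turned its direction. Centring on all genes lowered every difference by 0.12 and moved the split to 752 higher and 874 lower (46.2% higher of those past 2-fold, against 56.4%), and among genes above 9.3 on either array to 432 and 508 (46.0% against 54.5%). With values below 9.3 raised to 9.3, 390 genes were higher and 357 lower. At 1.5-fold there were 1806 and 1611, or 896 and 781 above 9.3. At 4-fold there were 260 and 147, or 162 and 114. Above 9.3 on both arrays 306 were higher, and above 11 on either array 321. With values below 9.3 raised, medians were 0.093 for injury markers, -0.038 for principal cells and 0 for immediate early, macrophage, acute phase, NF-kB, DNA replication, mitosis and cyclin genes. Over members above 9.3 on either array only, they were 2.58 for immediate early, 1.23 for acute phase, 2.06 for chemokine, 1.35 for cytokine, 1.56 for NF-kB, 2.04 for DNA replication, 3.72 for mitosis, 1.37 for keratin, 2.06 for tubulin, 0.85 for integrin and 0.85 for stromal genes. They were -2.49 for the thick ascending limb, -0.97 for red cells, -0.87 for pump and cotransporter genes, -0.72 for potassium channels and -0.71 for renin and vasoactive genes. Neutrophil and spleen lists had no such member. Near-zero medians of glycolysis, hypoxia, keratin and EGF genes changed sign with centring. Of 368 named differences, 72 shrank over 1.5-fold when dim values were raised. No paired analysis was possible because each group had 1 array.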

Other observations

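Lysosomal and proteasome genes mostly stayed within 2-fold. Of 34 measured lysosomal genes, 5 were over 2-fold higher (14.7%) and 1 lower in Tl 2 days. The share higher was 6.03% over all genes and 10.8% over those above 9.3 on either array. The cathepsins Ctsd, with 18.23 in Tl 2 days and 14.65 in control, and Ctsl, with 17.995 in Tl 2 days and 16.07 in control, and Lgmn, an asparagine-specific protease, with 16.65 in Tl 2 days and 15.26 in control, were higher, whereas Ctsb, with 17.26 in Tl 2 days and 16.87 in control, was within 2-fold and Glb1, a galactosidase, had 11.28 in Tl 2 days and 12.32 in control. The list as a whole had a median of -0.02. Of 43 measured proteasome subunits, 4 were over 2-fold higher (9.3%, near the share of all genes) and none lower, and 36 had a positive difference, with a median of 0.39. Psmd14, a deubiquitinase of the lid, had 11.05 in Tl 2 days and 9.88 in control, and Psmd5, an assembly factor, had 11.74 in Tl 2 days and 9.76 in control. Sqstm1, an adaptor of autophagy, had 15.28 in Tl 2 days and 14.31 in control, and Map1lc3b, a coat protein of autophagosomes, had 13.40 in Tl 2 days and 14.24 in control.

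Clock genes were 1 higher (5.56%) and 3 lower (16.7%) of 18 measured, against 6.03% and 4.65% of all genes. All 3 lower were dim on both arrays, where negative controls passed 2-fold at least as often as genes. Bhlhe40, a repressor in the clock, had 13.85 in Tl 2 days and 12.43 in control, Nr1d1 had 9.58 in Tl 2 days and 8.80 in control and Bmal1 had 8.79 in Tl 2 days and 9.53 in control. The hour at which the kidneys were taken was not used here. Hypoxia targets were 3 higher (12%) and 1 lower (4%) of 25 measured, against 6.03% and 4.65% of all genes. Only 1 of the 3 higher exceeded 9.3 on either array. Hif1a, the inducible factor, had 13.55 in Tl 2 days and 12.03 in control, and Mxi1, an antagonist of Myc, had 10.02 in Tl 2 days and 12.26 in control, while Vegfa had 14.20 in Tl 2 days and 15.04 in control and the glucose transporter Slc2a1 had 9.93 in Tl 2 days and 10.39 in control. Of 31 measured renin and vasoactive genes 2 were higher (6.45%) and 1 lower (3.23%), near the shares of all genes (6.03% and 4.65%). Agtr1a, a receptor of angiotensin II, had 10.63 in Tl 2 days and 11.49 in control. Among 8139 probe sets that carry no gene symbol here and are no controls, 381 were over 2-fold higher and 288 lower.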
